A study of Mus musculus with 7 samples.

Results

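The genes in question encode the proteins of the cytosolic ribosome, and the data are the accessibility of their promoters in 3 endocrine cell types of the mouse pancreatic islet. Members were taken by symbol from the protein-coding genes of the GENCODE mouse annotation: the letters Rpl or Rps, a number and at most an ending a, x or l, together with Rplp0, Rplp1, Rplp2 and Rpsa. Pseudogenes and the Rps6k kinases were left out. This gave 81 of 21938 genes, 50 for the large subunit and 31 for the small one. No measured value was used to choose them.

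Accessibility was measured by ATAC-Seq, in which a transposase cuts open chromatin and inserts sequencing adapters. Islets came from healthy mIns1-H2b-mCherry x Rosa-LSL-YFP mice that carried Gcg-Cre or Sst-Cre as the third transgene, and cells were sorted by fluorescence from animals pooled by sex. The label mCherry, driven by the Ins1 promoter, marked beta cells (n = 3), and YFP switched on by Cre marked alpha cells (Gcg-Cre, n = 2) or delta cells (Sst-Cre, n = 2), so YFP records that a cell or its ancestor expressed Cre. Each library is a pool of animals, no treatment was given, and ages were not given in the sources used here. The deposited lists of peaks (mm10) were scored. A gene was said to have a TSS peak where a peak interval reached within 1 kb of its annotated 5′ end.

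Ribosomal protein genes are transcribed in every growing cell, because each ribosome holds a single copy of nearly every one of these proteins. Their mRNAs begin with a cytidine followed by a run of pyrimidines, the 5′ terminal oligopyrimidine (5′TOP) tract, through which their translation follows nutrient and growth signals. In the endocrine pancreas they support the translation of the hormone precursors.

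The stretches below show the sequence around the start of members on which the results turn. Each gives 60 bases before and 20 bases from a RefSeq start (GRCm38.p6), read 5′ to 3′ along the gene, with capitals on the longest run of 5 or more pyrimidines near the start. Rpl15 (chr14:18270967-18271046, minus strand), Rpl34 (chr3:130730318-130730397, minus strand) and Rpl27a (chr7:109519135-109519214, plus strand) had strong peaks in every library. Rpl4 (chr9:64173327-64173406, plus strand) had peaks in only 2. Rps10 (chr17:27635225-27635304, minus strand), Rps2 (chr17:24720003-24720082, plus strand) and Rps24 (chr14:24490618-24490697, plus strand) are shown because their RefSeq starts lie far from the GENCODE 5′ ends.
Rpl15: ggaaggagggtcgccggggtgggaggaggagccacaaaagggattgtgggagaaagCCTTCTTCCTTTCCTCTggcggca
Rpl34: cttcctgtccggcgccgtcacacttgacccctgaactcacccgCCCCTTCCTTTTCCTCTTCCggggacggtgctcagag
Rpl27a: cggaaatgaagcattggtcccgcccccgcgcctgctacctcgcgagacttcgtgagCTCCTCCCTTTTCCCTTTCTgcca
Rpl4: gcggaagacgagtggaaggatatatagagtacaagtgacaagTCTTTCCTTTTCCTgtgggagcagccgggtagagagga
Rps10: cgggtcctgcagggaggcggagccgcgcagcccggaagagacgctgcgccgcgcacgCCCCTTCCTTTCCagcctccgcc
Rps2: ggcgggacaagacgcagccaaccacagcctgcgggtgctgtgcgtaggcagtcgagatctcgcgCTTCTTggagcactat
Rps24: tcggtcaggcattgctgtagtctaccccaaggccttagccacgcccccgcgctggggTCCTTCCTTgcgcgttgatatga
The run in Rpl15 was 17 bases long and began 4 bases before the start, and that in Rpl27a was 20 bases long. The run of Rpl4, 14 bases, was shorter than those printed for Rpl15, Rpl34 and Rpl27a and ended before the start. Run length did not follow peak strength in every member. Rpl37 and Rpl36al, also among the strongest, had runs of only 6 and 5 bases.

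The libraries were not equal. The lists held between 75860 and 518503 distinct intervals, and the read depth behind them is not part of the lists. The list of beta 1 was the longest, yet only 5.0% of its intervals had a −log10 q of at least 2, against 29.8% to 54.9% in the other 6. In name, the list of beta 1 is given as alpha and those of beta 2 and beta 3 as delta, whereas the sample labels say beta, and the labels were followed. Of the markers of the sorted cells, Gcg had a TSS peak at percentile 94.1 of the list in alpha 1, at 91.6 in alpha 2 and at 47.1 in delta 2, and in no beta list. Sst had one at percentile 95.5 in beta 1, at 17.1 in delta 1 and at 14.4 in delta 2. Of 6 beta markers 5, 3 and 6 had one in beta 1, beta 2 and beta 3, and 5 had one in every alpha and delta list. None of the 4 delta markers had a TSS peak in beta 2 or beta 3, and Ins2 had one in beta 3 alone. The markers of acinar, endothelial, immune and duct cells, 8 genes in all, had no TSS peak with a −log10 q of at least 2 in any library. Without that threshold Prss2 had a TSS peak in 3 libraries, Ptf1a in 2 and Pecam1 in 1, and the rest had none. Counted at any annotated transcript start, Cela1 and Ptprc had a peak in 5 libraries each and Pecam1 in 2.

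Most ribosomal protein promoters were open in all 3 cell types. A TSS peak was found for 74 members in alpha 1 and 73 in alpha 2, for 71, 56 and 70 in beta 1, beta 2 and beta 3, and for 73 and 71 in delta 1 and delta 2. As shares these were 91.4% and 90.1% in alpha, 87.7%, 69.1% and 86.4% in beta and 90.1% and 87.7% in delta. Beta 2 was the low library, and the other 6 lay close together. Over all protein-coding genes the shares were 60.5% and 62.0% in alpha, 69.7%, 48.9% and 56.8% in beta, and 62.3% and 56.3% in delta, so that the members exceeded the background by 17.9 to 31.4 percentage points in each library. The mean count was 73.5 ± 0.707 members in alpha (SD, n = 2), 65.7 ± 8.39 in beta (n = 3) and 72.0 ± 1.41 in delta (n = 2).

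**Figure D1:**
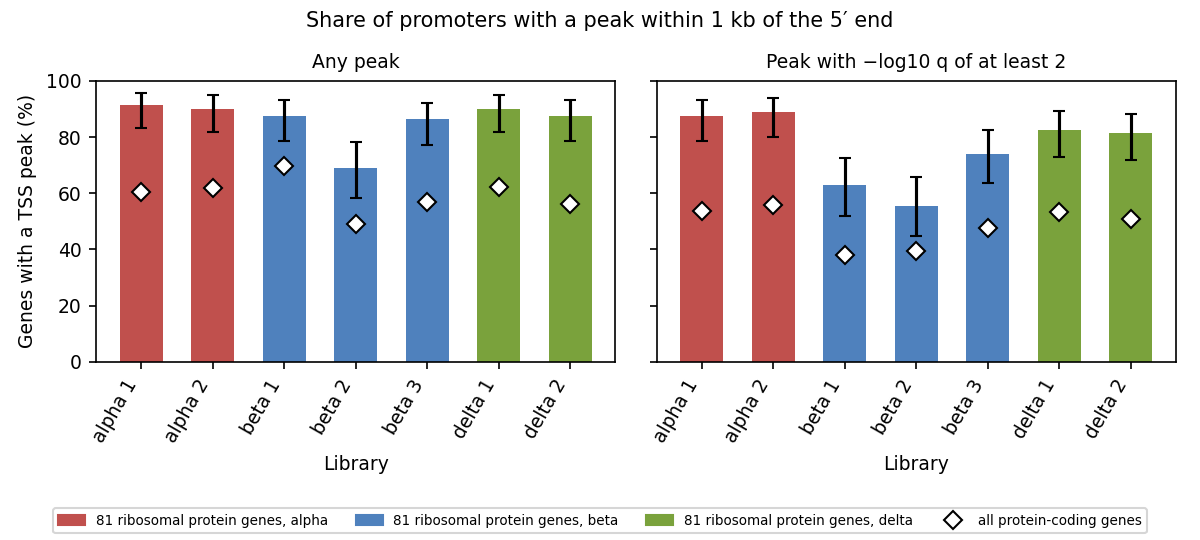
Share of genes with a TSS peak in each library, in percent, for any peak (left) and at the q threshold of 2 on the −log10 scale (right). Bars give the 81 ribosomal protein genes with 95% Wilson intervals, coloured by cell type, and open diamonds give all protein-coding genes. The bars lie above the diamonds in all 7 libraries, and on the right the 3 beta bars (55.6% to 74.1%) lie below the other 4 (81.5% to 88.9%).

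At the stricter threshold, a −log10 q of at least 2, the beta libraries lay apart. Alpha libraries then had 71 and 72 members with a TSS peak (87.7% and 88.9%), delta libraries 67 and 66 (82.7% and 81.5%), and beta libraries 51, 45 and 60 (63.0%, 55.6% and 74.1%). The 3 beta libraries lay below the other 4 with no overlap. The background moved in the same order, with 53.7% and 56.0% of all genes in alpha, 53.3% and 50.8% in delta and 38.0%, 39.3% and 47.7% in beta. The excess of the members over it was 34 and 32.9 percentage points in alpha, 29.4 and 30.6 in delta, and 25, 16.2 and 26.4 in beta. An exact two-sided permutation test of alpha against beta cannot go below 0.200 with these numbers of libraries, nor one of alpha against delta below 0.333. The lower beta values go together with lower fold enrichments and with the high share of weak intervals in beta 1, and the part of library quality in them was not tested. A q threshold also depends on depth. In the study's own quality metrics the beta libraries that the study kept had fewer unique reads than the alpha libraries. A further beta library, not lower in reads, was removed by the study for its low share of reads in peaks. In the same metrics a delta library also had fewer unique reads than the alpha libraries, within the range of the beta libraries kept. The part of depth was not tested.

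Across the 7 libraries, 52 members (64.2%) had a TSS peak in every one, against 41.5% of all genes. Another 13 missed a single library, and 12 of these 13 missed beta 2. They include Rpl11, which binds the short rRNA of the large subunit and also the ubiquitin ligase Mdm2, Rplp1 of the ribosomal stalk, and Rps3 at the mRNA entry channel. The exception was Rpl38, which missed delta 2. With the q threshold 39 members (48.1%) had a TSS peak in all 7, against 31.1% of genes. Only 4 members (4.94%) had none in any library, Rpl17, Rps10, Rpl3l and Rpl39l, against 17.3% of all genes. Small subunit genes had a TSS peak of any strength in all 7 libraries in 74.2% of cases (23 of 31) and large subunit genes in 58.0% (29 of 50). With the q threshold the shares were closer, at 51.6% (16 of 31) and 46.0% (23 of 50), and the difference was not tested.

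The height of these peaks was that of an ordinary open promoter. Each peak was placed by its p-value among all intervals of its list, as a percentile from 0 to 100. The members' median percentile was 89.4 and 89.2 in alpha, 97.4, 89.3 and 87.3 in beta and 91.8 and 82.5 in delta, where the TSS peaks of all genes had medians of 90.3, 90.4, 96.1, 88.2, 89.5, 92.1 and 85.1 in the same order. The members were the higher set in beta 1 and beta 2 and the lower one in the other 5 libraries, and the widest gap was that in delta 2. The percentile of a peak in beta 1 is raised by the many weak intervals of that list. The median fold enrichment of the members' peaks over the local background was 8.14 ± 0.508 in alpha (SD, n = 2), 5.81 ± 0.839 in beta (n = 3) and 8.48 ± 0.772 in delta (n = 2). For the TSS peaks of all genes the medians were 7.99 and 9.09 in alpha, 3.79, 5.93 and 7.25 in beta and 8.94 and 8.55 in delta. The beta libraries were thus the lowest over all genes as well. The members had the higher median in beta 1, beta 2 and delta 1 and the lower one in the others.

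**Figure D2:**
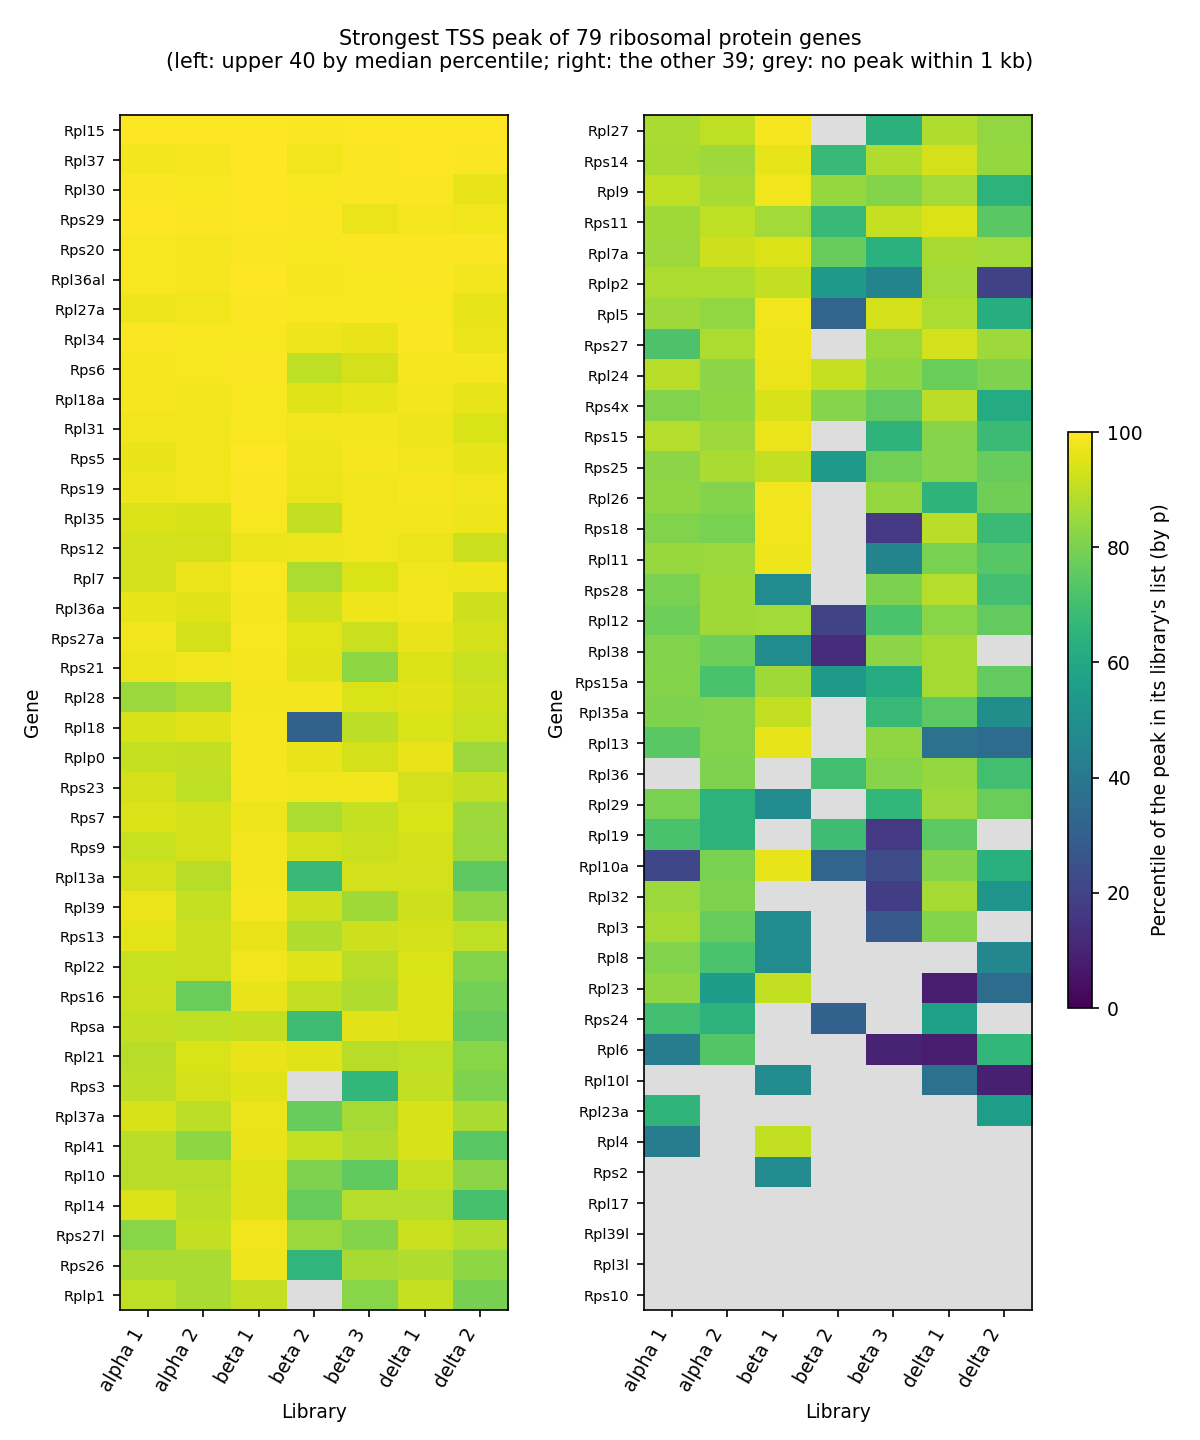
Percentile of the strongest TSS peak of the genes (rows, all but 2 of the 81) among all intervals of its library (columns), ordered by the median over 7 libraries with a missing peak counted as 0. Yellow is a high percentile, dark purple a low one and grey no peak within 1 kb. Rpl15 is at percentile 99.5 or above in every library, and the grey fields fall most often in beta 2.

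The strongest promoters were strong everywhere. Rpl15, a core protein of the large subunit, had fold enrichments of 18 and 18.9 in alpha, 18.9, 15.9 and 21.4 in beta and 17.9 and 21.2 in delta, and its peak lay at percentile 99.5 or above in all 7 lists. Its 3 groups overlap fully. Rpl30, also of the large subunit, had 19.9 and 18.6 in alpha, 12.8, 15.7 and 21.3 in beta and 20.1 and 14 in delta, so that its highest and its lowest value were both from beta. Rps20, of the head of the small subunit, had 14.8 and 15.6 in alpha, 10.3, 13.7 and 17.5 in beta and 17.1 and 18.8 in delta. For Rps19, the gene most often mutated in Diamond-Blackfan anaemia, the values kept to a narrow range from 9.30 in beta 2 to 12.5 in delta 2. The rest of the 8 members with the highest minimum were Rpl36al, Rpl37, Rps29 and Rpl34, with lowest percentiles between 96.7 and 98.1. Of the 50-base windows around the Rps29 5′ end only 64.1% occur once in the genome, the lowest share among members, so its reads could be placed less surely.

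The weakest promoters with peaks in all 7 lists included Rpl10a, Rps15a, Rpl12, Rps25, Rps4x and Rpl24. Rpl10a, a protein of the stalk of the large subunit that lies by the exit site of tRNA, had fold enrichments of 2.63 and 5.91 in alpha, 3.61, 3.28 and 3.08 in beta and 5.36 and 5.15 in delta. The 2 alpha libraries lay at either end of its range. Its percentile ran from 21.1 in alpha 1 to 96.1 in beta 1. Rps15a, of the small subunit, had 5.70 and 4.44 in alpha, 2.63, 3.39 and 3.57 in beta and 6.79 and 6.72 in delta. Each cell type kept to its own range of fold enrichment, but the beta libraries were the lowest over all genes too. On the normal scores described below, which rank genes within each library, alpha (0.18 and −0.05) and beta (0.02, 0.21 and 0.04) overlapped. The delta scores of Rps15a, 0.22 and 0.33, were the highest. The share of all genes with such a separation is not given here. Rpl10a, Rplp2 and Rpl18 were among the members with the widest range of percentile, and in Rpl18 the range rested on 1 low library, beta 2, with a fold enrichment of 3.53 against 7.08 to 12.2 in the others. Taken at any annotated start, the peak of Rpl18 in beta 2 was at percentile 90.6 in place of 31, so the low value belongs to the GENCODE 5′ end.

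Among genes with a special place in the ribosome, Rplp0, the base of the stalk that recruits elongation factors, had fold enrichments of 8.82 and 9.90 in alpha, 6.56, 10.6 and 10 in beta and 14.8 and 9.03 in delta. Rplp1 and Rplp2, the acidic stalk proteins, were lower. Rplp2 passed the q threshold in 3 of 7 libraries, alpha 1, alpha 2 and delta 1, and Rplp1 in 5. Rpl5, the partner of Rpl11 on the short rRNA, had 6.45 and 6.84 in alpha, 5.17, 3.28 and 10 in beta and 7.14 and 4.84 in delta. Rpsa, also known as the laminin receptor, ranged from 2.70 in beta 1 to 12.4 in delta 1. Rps27a, made as a fusion with ubiquitin, had 15.1 and 11.1 in alpha, 7.79, 9.72 and 8.51 in beta and 13.2 and 12.5 in delta. All its beta fold enrichments lay below the rest, as did the beta medians over all genes. Its normal scores, which rank genes within each library, did not separate beta. They were 1.39 and 0.73 in alpha, 1.02, 1.21 and 0.73 in beta and 0.93 and 1.03 in delta. The 4 X-linked members, Rpl10, Rpl36a, Rpl39 and Rps4x, had a TSS peak in all 7 libraries.

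The 5 members whose symbols end in l are close copies of other ribosomal protein genes, and they fell into 2 kinds. Rpl36al and Rps27l had TSS peaks past the q threshold in all 7 libraries. Rpl36al had fold enrichments of 17.1 and 16.3 in alpha, 13.4, 13.9 and 17.6 in beta and 20.3 and 17 in delta, and Rps27l ranged from 5.0 to 10.4. Rpl3l, known from heart and skeletal muscle, and Rpl39l, known from testis, had no TSS peak in any library. Rpl10l, also known from testis, had weak intervals in beta 1 (fold enrichment 1.80), delta 1 (2.87) and delta 2 (2.52), none past the q threshold, with summits at −680, 402 and 499 bases from the 5′ end. The starts of 4 of them are printed for comparison, with capitals as above, from Rpl36al (chr12:69184048-69184127, minus strand), Rps27l (chr9:66946026-66946105, plus strand), Rpl39l (chr16:10170168-10170247, plus strand) and Rpl3l (chr17:24727766-24727845, plus strand).
Rpl36al: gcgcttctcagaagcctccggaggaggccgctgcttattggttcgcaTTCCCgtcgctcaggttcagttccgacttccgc
Rps27l: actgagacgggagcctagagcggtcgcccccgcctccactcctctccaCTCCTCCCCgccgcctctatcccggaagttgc
Rpl39l: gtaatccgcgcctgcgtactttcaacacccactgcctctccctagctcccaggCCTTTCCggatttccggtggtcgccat
Rpl3l: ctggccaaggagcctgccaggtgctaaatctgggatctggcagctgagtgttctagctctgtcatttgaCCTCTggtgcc
A pyrimidine run near the start was present in copies with and without peaks, of 5 bases in Rpl36al, 9 in Rps27l, 7 in Rpl39l and 5 in Rpl3l.

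Several gaps were set by the annotated start. In Rps10, Rps2, Rps24 and Rpl17 the GENCODE 5′ end belongs to an upstream transcript, and peaks lay at another start of the gene, 1124 bases inward in Rps10, 1947 in Rps2, 3556 in Rps24 and 1919 in Rpl17. Taken at any annotated transcript start, Rps10, Rps2 and Rps24 had a peak in all 7 libraries and Rpl17 in 6. The pyrimidine run printed above for Rps10 lies 1425 bases from the GENCODE 5′ end, and that for Rps24 lies 3553 bases from it. With this wider rule 56 members (69.1%) had a peak in all 7 libraries, against 46.6% of all genes, and Rpl3l and Rpl39l were the 2 members left with none.

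Other gaps remained at any annotated start. Rpl4, which lines the peptide exit tunnel, had only intervals of fold enrichment 3.0 in alpha 1 and 2.70 in beta 1, with summits at −475 and −595 bases and short of the q threshold. Rpl23a, at the tunnel exit where the signal recognition particle docks, had intervals of 3.75 in alpha 1 and 4.20 in delta 2. Rpl8, Rpl6, Rpl23, Rpl3, Rpl32 and Rpl19 had peaks in 4 or 5 libraries and passed the q threshold in 1 to 4. Rpl8 had 5.56 and 4.55 in alpha, 1.80 in beta 1 and 3.79 in delta 2. Rpl32 had 6.58 and 6.33 in alpha, 2.94 in beta 3 and 6.94 and 4.17 in delta. At any annotated start Rpl19 and Rpl23 gained 1 library each, to 6. Expression was not measured in these lists, so a missing peak is a missing call and does not show a closed promoter. The windows around the members' 5′ ends were mostly unique in the genome (median 99.8% of 50-base windows), and only 8 members (9.88%) were under 90%, against 13.0% of all genes.

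No member passed a test between cell types. For each library the strongest TSS peak of every gene was ranked and turned into a normal score, on which 1 unit is 1 SD of a normal distribution. Genes without a peak share a single low score in each library, so the unit is not the SD over genes. The cell types were compared in limma over 14924 genes with a TSS peak in at least 2 libraries, 76 of them members. With Benjamini-Hochberg adjustment over all genes, limma called 0.00670% of genes for any difference, 0.00670% for alpha against beta, 0% for alpha against delta and 0.0134% for beta against delta, which are 1, 1, 0 and 2 genes, and among members 0 in each. At an unadjusted p under 0.05 there were 4, 6, 3 and 2 members (5.26%, 7.89%, 3.95% and 2.63%) and 1730, 2063, 815 and 1523 genes (11.6%, 13.8%, 5.46% and 10.2%). The members' median difference in score was 0.05 for alpha minus beta, 0.03 for alpha minus delta and −0.05 for beta minus delta, beside 0.03, 0.00 and −0.02 over all genes tested. These medians are near 0, and the sign of each changed under some alternative.

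Single differences ran from −0.80 to 0.80, and Rpl28 and Rps23 are described because theirs were among the largest. Rpl32, with scores of 0.29 and 0.12 in alpha, −1.03, −0.66 and −0.11 in beta and 0.23 and 0.04 in delta, had the lowest adjusted limma p of any member, 0.257 for alpha minus beta (0.80, 95% interval 0.21 to 1.40). Every beta score lay below the other 4, but Rpl32 had no TSS peak in beta 1 or beta 2. The scores −1.03 and −0.66 are those of genes without a peak in these lists, so the difference rests in part on missing calls. Rpl28 had scores of 0.28 and 0.35 in alpha, 0.76, 1.68 and 0.90 in beta and 0.79 and 0.96 in delta, with a difference of −0.80 (95% interval −1.41 to −0.19) and an adjusted limma p of 0.265. Rps23, of the decoding centre, had 0.73 and 0.49 in alpha, 0.94, 1.52 and 1.38 in beta and 0.59 and 0.83 in delta, and its difference of −0.67 (95% interval −1.19 to −0.16) had the same adjusted p. All beta scores of Rps23 were above the other 4. The share of all genes with separations such as those of Rpl32 and Rps23 is not given here. The median half-width of the 95% intervals was 0.52 for alpha minus beta, so that differences of that size in single members would not be told apart from none. These intervals are not adjusted for the number of genes tested, so larger differences can also go uncalled.

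A member present in every library of one cell type and absent from every library of another was seen once, as Rpl10l in delta against alpha. That is 1 of 81 members, where 3.12% of all genes met the rule for some pair. At the q threshold 7 of 81 members met it, Rpl3, Rpl8, Rpl13, Rpl32, Rplp2, Rps15a and Rps24, against 5.91% of all genes. All of them passed it in every alpha library. Rpl13 lacked such a peak in the delta libraries and the others in the beta libraries. Taken at any annotated start, Rps24 passed the threshold in all 7 libraries, so its gap belongs to the GENCODE 5′ end. Rpl3 passed it in 4 there, beside 3 at the 5′ end. The order of promoters was much alike from library to library. Spearman's rho over the 76 members was 0.73 to 0.87 for 5 pairs of libraries of one cell type and 0.76 to 0.89 for 16 pairs from different cell types, beside 0.79 to 0.92 and 0.79 to 0.90 over all 14924 genes. The points share their sequence and annotation in all libraries, so these values are descriptions.

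Peak summits lay at the start of the genes. The median summit of the members' strongest peaks was at −12.2 ± 0.354 bases, that is upstream of the 5′ end, in alpha (SD, n = 2), at −27.3 ± 8.55 in beta (n = 3) and at −14.5 ± 4.95 in delta (n = 2). Summits fell within 100 bases of the 5′ end for 53.6% to 70.4% of the members with a peak, against 41.9% to 53.2% of all genes. Of the 52 members with 7 peaks, 29 had all 7 summits within 100 bases of each other, and the median spread was 89.0 bases. In Rpl34 the summit stayed between −33 and −5 bases, and in Rpl30 between 308 and 327 bases downstream.

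**Figure D3:**
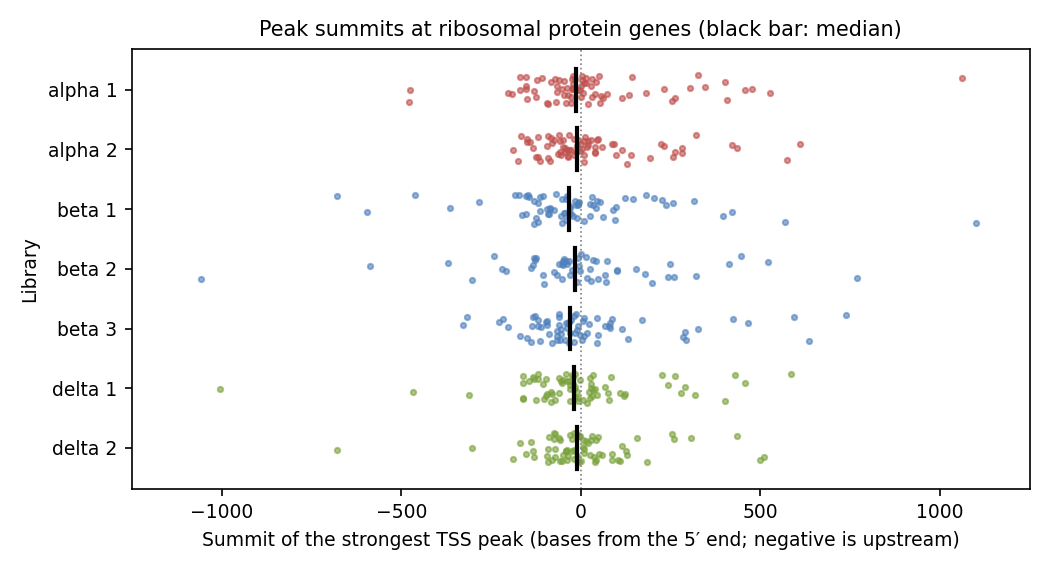
Position of the summit of each member's strongest TSS peak relative to the GENCODE 5′ end, in bases along the gene, with 1 row of points per library and a black bar at the median. Most points lie within 200 bases of the 5′ end in every library, and the medians lie between −33.0 and −11.0 bases, upstream of it.

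Among the 52 members with 7 peaks, the median summit lay over 200 bases downstream in 5. Rpl15, Rplp2, Rpl30, Rps25 and Rpl35 had median summits 262, 281, 320, 346 and 435 bases downstream of the GENCODE 5′ end. RefSeq places the start 405 bases downstream in Rpl15 and 493 bases downstream in Rpl35, so that their median summits were at −143 and −58.0 from it. In Rplp2 the summit fell on the RefSeq start and in Rps25 at −229 from it, while the table has no entry for Rpl30. Over the 34 members with 7 peaks and 1 RefSeq start in the table, 20 had their median summit upstream of the GENCODE 5′ end and 27 had it upstream of the RefSeq start, at a median position of −57.5.

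Some promoter motifs were more frequent among the members than among promoters in general. RefSeq promoter windows, 250 bases before and 50 after a start, were found for 61 of the 81 members and 16522 protein-coding genes, and a gene was counted where any of its windows held a match on either strand. A 5′TOP-like start, C and at least 4 pyrimidines beginning within 10 bases of the start, was read on the gene strand only, and 62.3% of members (38) and 35.2% of all genes held it. The letters CCGGAAG, a core bound by ETS factors, were held by 41.0% of members (25, 95% Wilson interval 29.5% to 53.5%) and 13.4% of genes. AAGATGG, the start of the YY1 motif, was held by 14.8% and 7.26%, and TGACGTCA, the full cAMP response element, by 8.20% (5 members) and 2.64%.

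Other motifs were near the background. The GC box GGGCGG was held by 60.7% of members and 51.0% of genes, the E-box CACGTG by 9.84% and 9.18%, and GCGCANGCG, part of the NRF1 motif, by 14.8% and 10%. The TATA box TATAAA was held by 9.84% of members against 14.3% of genes, and its first letters TATAA, which overlap it, by 27.9% against 24.4%. CCAAT was held by 32.8% against 42.1%. The median GC content was 57.0% in both sets, and the ratio of observed to expected CpG was 0.870 in members and 0.584 in all genes. Matches are descriptions of letters, and no binding was measured.

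**Figure D4:**
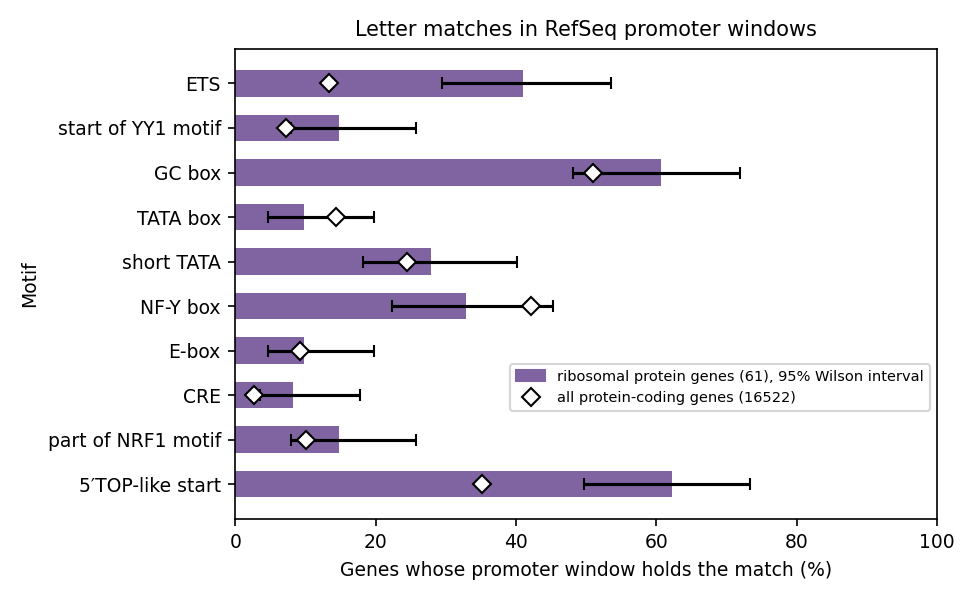
Share of genes whose RefSeq promoter window holds each motif, in percent. Bars give 61 ribosomal protein genes with 95% Wilson intervals and open diamonds give 16522 protein-coding genes, with CCAAT plotted as the NF-Y box and the short TATA as TATAA. The bars stand furthest above the diamonds for the ETS core (41.0% against 13.4%) and the 5′TOP-like start (62.3% against 35.2%).

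Examples of an ETS core just upstream of the start are shown in capitals in stretches of the same length from Rpl37 (chr15:5116553-5116632, plus strand), Rpl38 (chr11:114668520-114668599, plus strand) and Rps21 (chr2:180257319-180257398, plus strand).
Rpl37: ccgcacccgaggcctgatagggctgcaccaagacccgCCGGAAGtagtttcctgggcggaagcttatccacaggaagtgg
Rpl38: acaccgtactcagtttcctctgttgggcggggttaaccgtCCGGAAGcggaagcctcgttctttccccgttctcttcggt
Rps21: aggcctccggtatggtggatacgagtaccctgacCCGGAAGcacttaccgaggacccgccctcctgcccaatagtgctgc
Rpl37 and Rps21 had TSS peaks past the q threshold in all 7 libraries, and Rpl38 in 4. Over all members, 64.0% of the 25 with the core and 66.7% of the 36 without it had a TSS peak in all 7 libraries. For the 5′TOP-like start the shares were 68.4% of 38 and 60.9% of 23. The widest gap was for CCAAT, with 85.0% of 20 members with it and 56.1% of 41 without. These shares were not tested.

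Neighbouring genes and hosted RNAs were also counted. A protein-coding gene began head to head within 1 kb upstream of 9 members (11.1%), against 6.79% of all genes, among them Mgat2 at Rpl36al, Ndufa7 at Rps28 and Zwilch at Rpl4. Only 3 of these 9 had a TSS peak in all 7 libraries, and Rps2 and Rps24, whose peaks lie at another start, are among the other 6. Of the 29 members that hold snoRNA genes in their introns, which guide the modification of rRNA, 65.5% had a TSS peak in all 7 libraries, beside 63.5% of the 52 without.

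Genes that work beside the ribosomal proteins were also mostly open. A TSS peak in all 7 libraries was found for 13 of 14 genes of translation factors and other proteins with TOP mRNAs (92.9%), for 22 of 29 ribosome assembly genes (75.9%) and for 55 of 78 mitochondrial ribosomal protein genes (70.5%), beside 64.2% of the members. At the q threshold the shares were 78.6%, 55.2% and 43.6%, beside 48.1% of the members, so the mitochondrial set changed its place. These differences were not tested. The mitochondrial set, whose mRNAs lack the TOP tract as a class, had shares per library of 76.9% to 97.4%, close to the 69.1% to 91.4% of the cytosolic set. Among ribosomal protein genes whose symbols fall outside the rule, Rpl22l1, Rps3a1 and Fau had a TSS peak in all 7 libraries, and Rack1, a scaffold on the small subunit, and Rpl7l1 in 6. Rpl22l1, a copy of Rpl22, was the strongest of them, at percentile 98.7 or above in every list.

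**Figure D5:**
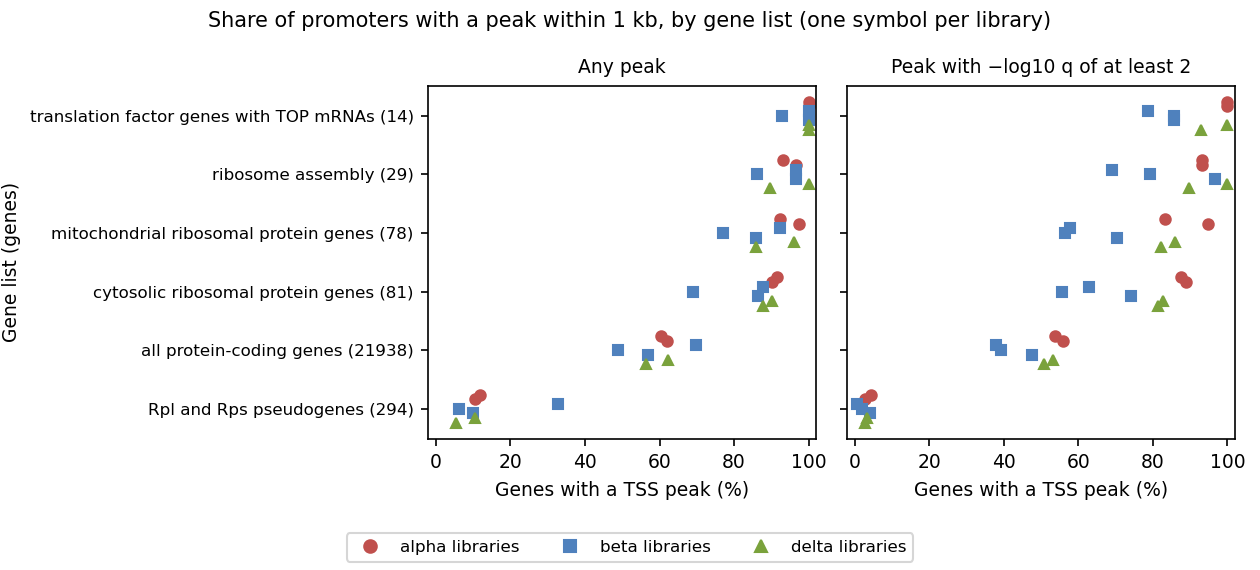
Share of genes with a TSS peak in each of 7 libraries, in percent, for 6 gene sets, for any peak (left) and for a −log10 q of at least 2 (right). Each symbol is 1 library, with circles for alpha, squares for beta and triangles for delta. Cytosolic and mitochondrial ribosomal protein genes overlap, all protein-coding genes lie lower, and the pseudogenes lie at 5.44% to 32.7% on the left and 0.680% to 4.42% on the right.

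In any 1 library most processed copies of the same genes had no peak. Among 294 annotated Rpl and Rps pseudogenes, 5.44% to 32.7% had a peak within 1 kb of their start, the highest in beta 1, and 0.680% to 4.42% had one past the q threshold. Over 10236 processed pseudogenes of all kinds the shares were 5.87% to 37.1% and 2.21% to 4.12%. In all 7 libraries 2 of the 294 had a peak (0.680%), beside 1.66% of all processed pseudogenes, and 137 (46.6%) had none in any library. Reads of 50 bases can be placed in either a gene or its copy where the sequences are alike, and the part of this in the peaks was not tested.

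Results were also taken without beta 1. The beta mean then was 63.0 members with a TSS peak, beside 65.7 with it, no member was called between cell types, and the lowest adjusted limma p of a member was 0.145. With the sequencing lane that the names of the lists give as a term in the model, no member was called and the lowest adjusted limma p was 0.138. The names give lane 6 for alpha 1, alpha 2 and beta 1 and lane 7 for the other libraries. Lane thus separates alpha from delta libraries, and without the term their comparison cannot be told apart from lane. The term itself rests on beta 1 against beta 2 and beta 3.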

How the data were processed

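ATAC-Seq libraries of FACS-purified alpha (n = 2), beta (n = 3) and delta cells (n = 2) were compared. Per the labels and the methods of the study, single-end reads of 50 bases were checked with FastQC, trimmed with Trimmomatic, aligned with Bowtie2 to mm10 without mitochondrial DNA, marked for duplicates (Picard) and cleared of blacklisted regions, and peaks were called with MACS2 in each library. Versions and the calling threshold are not given in the sources used here. The authors deposited, for each peak, a fold enrichment over the local background, and a −log10 p-value and −log10 q-value from MACS2. Read counts and depth are not part of the lists, so the count test of the study was not repeated here.

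Peaks that shared an interval were counted once. A gene's TSS peak was the peak of lowest p within 1 kb of its GENCODE (vM21) 5′ end, and its percentile was its rank by p within its own list. The ranks, with genes without a peak tied lowest, were turned into normal scores and compared in limma 3.58.1 (R 4.3.3) with a mean per cell type, over genes with a TSS peak in at least 2 libraries and with Benjamini-Hochberg adjustment at 0.05. Python 3.11.15, numpy 2.4.6, pandas 2.3.3, scipy 1.17.1, numba 0.67.0 and matplotlib 3.10.9 were used, and the scripts were tested on simulated data. Sequences are from RefSeq (GRCm38.p6), with 20 members not matched.

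Members were named by rule: those missing in a library (the 15 in fewest libraries), the 8 with the highest lowest percentile, the 8 with the lowest median percentile and the 5 with the widest range among those in all 7, members called by limma, Rplp0, Rplp1, Rplp2, Rpsa, Rpl5, Rpl11, Rps19 and Rps27a, symbols ending in l, X-linked members and 6 other ribosome genes. Rpl27a, Rpl28, Rpl38, Rps3, Rps21, Rps23, Rpl35 and the others named outside this rule were chosen after their values were seen. The values of some genes that the rule names are not reported here. The members and lists were chosen with earlier results of these data known. Same-numbered replicates did not deviate together (correlations −0.012 to 0.012), and a shared number was not taken as a pair. Per the methods of the study, cell types came from the same animals, pooled by sex, so beta libraries can share animals with alpha or delta libraries. The labels used here do not tie libraries to pools, so the correlations above cannot show whether animals were shared. This sharing was not modelled, and p-values measure the spread between these libraries. Intervals of shares cover counting error only.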

Additional observations from a re-analysis of the deposited data

How the results depend on the processing

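No member was called by limma under any of 16 alternative settings, each read for 4 comparisons, where the lowest adjusted p of a member was 0.0866. Of the values that answer a comparison, 144 stayed within the replicate spread or 1.5 times the main count and 69 moved. The members' median score differences, all near 0, changed sign: for alpha minus beta to −0.02 with the lane and −0.01 without beta 2, for alpha minus delta to −0.02 with the lane, and for beta minus delta to 0.01 at any start and with no filter. Members with a TSS peak averaged 71.5 in alpha, 52.0 in beta and 66.5 in delta at a −log10 q of at least 2, and 71.5, 55.0 and 67.5 with the 50000 strongest peaks of each list. They averaged 77.0 in alpha and 75.0 in delta within 3 kb, and 76.5 and 75.0 at any transcript start. The median percentile in alpha was 89.7 with the q threshold, with 50000 peaks and at any start. Ranked among TSS peaks alone, the percentiles were 46.6 (alpha), 52.7 (beta) and 46.8 (delta). The beta fold enrichment was 6.90 with the q threshold, and the alpha summit was at −14.8 with it and at −15.5 for the nearest summit. Members present in every library of one cell type and none of another numbered 7 with the q threshold and 5 with 50000 peaks, and between 1 and 6 when a library was left out, highest without delta 1, where 5.91%, 4.44% and 4.80% to 7.67% of all genes met the rule. In a promoter window of 100 bases before to 50 after the start, the GC box was held by 45.9% of members and 43.3% of genes, TATAA by 18% and 13.3%, and the E-box by 3.28% and 5.71%, so that the E-box went from above to below the background.

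Over all genes, where limma called 1 gene for any difference, 1 for alpha against beta and 2 for beta against delta, the counts were 0, 0 and 0 at the q threshold, 2, 2 and 3 at any start, 1, 2 and 7 with fold enrichment in place of p, 5, 1 and 9 with no filter, 1, 2 and 0 within 3 kb and 0, 0 and 1 within 500 bases. With the sequencing lane they were 1, 0 and 0, and with a replicate block 0, 0 and 0. Leaving out 1 library gave 0 to 3, 0 to 3 and 0 to 2. For alpha against delta every fit called 0. The causes were not tested. With 2 or 3 libraries a cell type and no read counts, differences in single promoters within the stated intervals could not be told apart from none. Larger ones were not called either. The alpha minus beta intervals of Rpl32 and Rpl28 left out 0, yet their adjusted limma p were 0.257 and 0.265.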
